A study of Homo sapiens with 2 samples.

Results

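The 10 genes described here encode chaperones and protein disulfide isomerases of the endoplasmic reticulum (ER) and factors of the unfolded protein response. They are the chaperones HSPA5 and HSP90B1, the lectin chaperones CALR and CANX, the disulfide isomerases P4HB, PDIA3 and PDIA6, and the transcription factors XBP1, ATF4 and DDIT3. They were chosen by name, by matching the Ensembl identifiers of the deposited tables to GENCODE release 44, and all 10 were found among the 58735 genes listed. RNA came from MCF10a-Snail-ER cells, a derivative of the non-tumorigenic human mammary epithelial line MCF10a that stably carries the transcriptional repressor Snail fused to the estrogen receptor. The fusion protein is activated by tamoxifen, and both samples came from cells in which 1 day of 100 nM tamoxifen had initiated epithelial-to-mesenchymal transition. One sample was read by Nanopore direct RNA sequencing on a MinION, in which native polyadenylated strands are read one by one, and the other was an Illumina library made with a TruSeq stranded mRNA kit, in which RNA is fragmented and copied into amplified cDNA. The series describes the RNA as matched. With 1 library per platform and no untreated library, the comparison open to these data is between the platforms, and no value has a replicate check: intervals and tests reflect counting error alone.

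Proteins that enter the ER fold with the help of HSPA5 (also called BiP), HSP90B1 (also called GRP94), the lectin cycle of CANX and CALR, and the isomerases that form and rearrange disulfide bonds. When unfolded proteins accumulate, the sensors IRE1 (gene ERN1), PERK (gene EIF2AK3) and ATF6 signal to the nucleus. IRE1 cuts a short stretch out of the XBP1 messenger, PERK favours translation of ATF4, and ATF4 in turn activates DDIT3, which encodes the pro-apoptotic factor CHOP. ATF6 and XBP1 act on chaperone promoters through the ER stress response element (ERSE). Mammary epithelial cells depend on this machinery for secretion of matrix and milk proteins.

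The ERSE in the promoters is shown first. The genes were chosen as chaperones and factors of the response, so its presence among them is a description and not independent support. RefSeq promoter windows on GRCh38.p14, from 250 bases before to 50 bases after each annotated start, were held for 9 of the 10 genes, and PDIA3 had no entry. The ERSE was searched on both strands as CCAAT and CCACG with 9 bases of any kind between them, and was found in 6 of the 9 genes. Among all genes with a window, 0.0916% had it (25 of 27305), or 27 of 35116 windows. Of the 53 genes with a window in the wider ER lists described below, 2 had it (CRELD2 and ERO1B). The matches follow, read 5′ to 3′ along the strand that carries the motif, with the fixed bases in capitals and the free spacer in lower case.
HSPA5 (chr9:125241391-125241409, strand −): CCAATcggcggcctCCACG
HSP90B1, first match (chr12:103930216-103930234, strand +): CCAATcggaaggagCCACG
HSP90B1, second match (chr12:103930321-103930339, strand −): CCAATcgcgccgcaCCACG
CALR (chr19:12938384-12938402, strand −): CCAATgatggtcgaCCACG
CANX (chr5:179698778-179698796, strand +): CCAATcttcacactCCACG
PDIA6 (chr2:10812853-10812871, strand −): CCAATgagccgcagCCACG
XBP1 (chr22:28800603-28800621, strand −): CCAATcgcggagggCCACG
The match began 66 bases before the annotated start in HSPA5, 86 in PDIA6, 52 in XBP1 and 225 in CALR, where it lies on the strand opposite to the gene. HSP90B1 was the only one of the 9 with more than 1 exact match, at 194 and 89 bases, and the latter is on the opposite strand. Sites that differ in a fixed base were not searched. CANX has 4 annotated windows, and the same site fell in 3 of them. No match was found in the windows of P4HB, ATF4 or DDIT3. The other elements of the response, searched in the same way on both strands, had no match in the windows of the 9 genes: ERSE-II (ATTGG and CCACG with 1 base between them, in 0.0696% of all genes), the unfolded protein response element (TGACGTGG, 0.927%) and the CEBP-ATF response element (TGATGCAAT, 0.293%). A match describes letters and not binding, and neither library measures binding.

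XBP1 is shown next because gene counts cannot separate its forms. GENCODE annotates 1 of its 6 transcripts without a stretch of 26 bases, the form made when IRE1 has cut the messenger, and 4 transcripts contain the stretch. Its first base equals the base that follows it, so a stretch placed 1 base later would leave the same messenger. As annotated, the stretch lies on the minus strand at chr22:28796128-28796153 (hg38), here in capitals with 12 coding bases on either side in lower case.
XBP1 (chr22:28796116-28796165): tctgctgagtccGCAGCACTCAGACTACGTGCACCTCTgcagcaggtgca
The deposited tables give 1 value per gene, so the counts of XBP1 below hold cut and uncut messengers together.

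In all, 403235 counts were deposited for Nanopore and 191741714 for Illumina, and levels are given as counts per 1000000 of the library total (CPM). A single Nanopore count equalled 2.48 CPM, and a single Illumina count 0.00522 CPM. Basal epithelial markers fitted the labelled cell line, with all 7 detected on both platforms and a summed level of 3380 CPM by Nanopore and 3157 CPM by Illumina. Of the 4 markers of ER-rich secretory cells (JCHAIN, MZB1, PRSS1, INS), none had a Nanopore count, and their summed Illumina level was 0.141 CPM. Endothelial markers summed to 0 and 5.16 CPM, leukocyte markers to 12.4 and 11.1 CPM and fibroblast markers to 24.8 and 32.0 CPM. Luminal markers, 6 of 6 detected, summed to 2931 and 1867 CPM, and these sums include ESR1, whose counts can contain the construct.

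All 10 genes were detected on both platforms. Together they held 836 Nanopore counts, 0.207% of the library (95% Wilson interval 0.194 to 0.222%), and 1049209 Illumina counts, 0.547% (0.546 to 0.548%). The 7 chaperone and isomerase genes took most of this, at 0.174% of Nanopore counts (0.161 to 0.187%) and 0.506% of Illumina counts (0.505 to 0.507%). The 3 transcription factors held 0.0337% (0.0285 to 0.0399%) and 0.0414% (0.0411 to 0.0417%), and the Nanopore interval lay below the Illumina one. This depended on the total used. Of protein-coding, non-mitochondrial counts they held 0.0442% (0.0374 to 0.0523%) and 0.0457% (0.0454 to 0.0461%), and these intervals overlapped. Divided by transcript length, the Illumina share of the 10 genes was 0.317%.

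**Figure D1:**
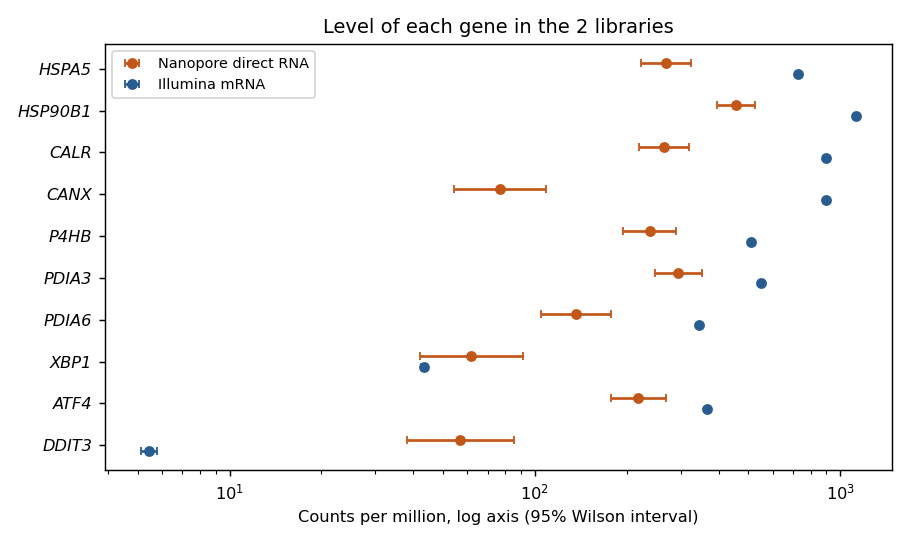
Level of each of the 10 genes in the Nanopore (orange) and Illumina (blue) library, in CPM on a log axis, with 95% Wilson intervals that cover counting error only. Illumina points lie to the right of Nanopore points for 8 genes, and DDIT3 and XBP1 lie the other way.

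HSPA5, the ER member of the Hsp70 family and the main sensor-binding chaperone, had 108 Nanopore counts and 139543 Illumina counts (ENSG00000044574, chromosome 9, 125234853 to 125241382, hg38). In Nanopore data this was 268 CPM (95% Wilson interval 222 to 323), and in Illumina data 728 CPM (724 to 732). Its Nanopore CPM was 0.368 of its Illumina CPM (exact 95% interval 0.302 to 0.444), or −1.44 on the log2(CPM + 1) scale used for all ratios below. No other gene annotated in GENCODE release 44 overlaps the body of HSPA5. Of the 50-base words of its transcript, 9.50% occur in another gene on the same strand. With the Illumina counts divided by the length of the canonical transcript (TPM), the log2 ratio was −0.10. On that scale the median of all tested genes was 0.48, and 31.5% of them lay below HSPA5. The ratio of HSPA5 was −0.17 with the length of all annotated exons joined and 0.35 with mean transcript length, so its sign depended on length.

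HSP90B1, the ER member of the Hsp90 family, was the most abundant of the 10 by Nanopore, with 184 counts, and had 216052 Illumina counts (ENSG00000166598, chromosome 12, 103930107 to 103953931). These are 456 CPM (395 to 527) for Nanopore and 1127 CPM (1122 to 1132) for Illumina. The Nanopore CPM was 0.405 of the Illumina CPM (0.349 to 0.468), a log2 ratio of −1.30, close to that of HSPA5. Within the Nanopore library HSP90B1 had 1.70 times the count of HSPA5 (exact 95% interval 1.34 to 2.18), and by Illumina TPM it had 2.18 times the level. This order turned to 0.772 when Illumina counts were divided by the union of all annotated exons, which is 13092 bases for HSP90B1 against a canonical transcript of 2782 bases.

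The lectin chaperones CALR and CANX bind the same monoglucosylated glycans, CALR in the ER lumen and CANX from the membrane. They had nearly equal Illumina counts, 172014 for CALR (ENSG00000179218, chromosome 19, 12938578 to 12944489) and 172567 for CANX (ENSG00000127022, chromosome 5, 179678628 to 179731641), but 107 and 31 Nanopore counts. The Nanopore count of CALR was 3.45 times that of CANX (exact 95% interval 2.30 to 5.33), and by Illumina TPM the ratio of CALR to CANX was 2.58. CALR, a transcript of 1901 bases, was the higher of the pair on both scales, as it was with Illumina counts divided by union (4.90) or mean transcript length (3.34). The log2 ratio of CALR was −1.75, from 265 CPM in the Nanopore (220 to 321) and 897 CPM in the Illumina library (893 to 901).

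CANX had the lowest ratio of the 10 genes. The Nanopore level was 76.9 CPM (54.2 to 109) and the Illumina level 900.0 CPM (896 to 904), so its Nanopore CPM was 0.0854 of the Illumina CPM (0.0580 to 0.121). The log2 ratio was −3.53, and 1.99% of all tested genes had a lower one. Among the 2471 tested genes with a canonical transcript of 3551 to 5374 bases, the length class of CANX (4915 bases), 2.39% were lower. The difference became smaller when length was divided out but kept its sign, at −1.87 with canonical, −1.62 with mean transcript and −1.19 with union exonic length. No 50-base word of its canonical transcript occurs in a transcript of another gene, which also held for XBP1. None of the 10 transcripts, that of CANX included, aligned to an alternate contig of its own chromosome, among the 125 searched. The 2 genes that overlap the body of CANX had no Nanopore count. The cause of the low CANX ratio was not tested.

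Of the disulfide isomerases, PDIA3, which works with CALR and CANX on glycoproteins, had 119 Nanopore and 105698 Illumina counts (ENSG00000167004, chromosome 15, 43746394 to 43773279). P4HB, the classical protein disulfide isomerase and the beta subunit of prolyl 4-hydroxylase, had 96 and 97866 (ENSG00000185624, chromosome 17, 81843159 to 81860856). PDIA6, an isomerase that partners HSPA5, had 55 and 66109 (ENSG00000143870, chromosome 2, 10783391 to 10837977). Their levels, not divided by length, were 295, 238 and 136 CPM by Nanopore and 551, 510 and 345 CPM by Illumina. By Illumina TPM with canonical length PDIA3 was the lowest of the 3, at 232, beside 325 for P4HB and 234 for PDIA6.

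All 3 isomerases had a lower Nanopore than Illumina CPM. The Nanopore CPM was 0.535 of the Illumina CPM for PDIA3 (exact 95% interval 0.443 to 0.641), 0.466 for P4HB (0.378 to 0.570) and 0.396 for PDIA6 (0.298 to 0.515), with log2 ratios of −0.90, −1.10 and −1.33. PDIA3 therefore stayed within 2-fold, and P4HB passed it by a margin that was lost with median-ratio scaling (−0.97) or protein-coding totals (−0.85). The sign for PDIA3 depended on length: its log2 ratio was 0.34 with the canonical transcript, 1.21 with union exonic length and −0.18 with mean transcript length. That of P4HB was −0.45, 0.93 and 0.03, and that of PDIA6 stayed negative at −0.78, −0.74 and −0.59.

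XBP1, the factor activated by IRE1, had 25 Nanopore and 8288 Illumina counts (ENSG00000100219, chromosome 22, 28794555 to 28800597), or 62.0 CPM (42.0 to 91.5) and 43.2 CPM (42.3 to 44.2). Its log2 ratio was 0.51 and the exact 95% interval of the plain ratio, 0.928 to 2.12, included equality, so a difference was not detectable with this number of counts. XBP1 overlaps no other gene and shares no 50-base word with one. With an exact binomial test adjusted by the Benjamini-Hochberg method its adjusted p was 0.176, and with protein-coding totals, where its log2 ratio was 0.75, it passed the threshold of 0.05.

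ATF4, the factor translated when PERK or related kinases are active, had 88 Nanopore and 70030 Illumina counts (ENSG00000128272, chromosome 22, 39519695 to 39522683). Its Nanopore level of 218 CPM (177 to 269) and Illumina level of 365 CPM (363 to 368) gave a log2 ratio of −0.74. ATF4 was the highest of the 3 factors on both platforms. Its Nanopore count was 3.52 times that of XBP1 (exact 95% interval 2.24 to 5.73), against a ratio of 10.7 by Illumina TPM, which ranged from 9.79 to 10.7 over the 3 length definitions. Its sequence is partly shared, since 32.9% of the 50-base words of the canonical transcript occur in other genes, most of them in the pseudogene ATF4P3. That pseudogene had no Nanopore count and 294 Illumina counts, 0.420% of those of ATF4.

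DDIT3, the gene of CHOP, was the lowest of the 10 on both platforms and the only one at least 2-fold higher by Nanopore. It had 23 Nanopore and 1042 Illumina counts (ENSG00000175197, chromosome 12, 57516588 to 57521737), or 57.0 CPM (38.0 to 85.6) and 5.43 CPM (5.11 to 5.77). The Nanopore CPM was 10.5 times the Illumina CPM (exact 95% interval 6.62 to 15.8), a log2 ratio of 3.17. The ends of DDIT3 overlap MARS1 and MBD6, both on the opposite strand. MARS1, which encodes methionyl-tRNA synthetase and shares 355 exonic bases with DDIT3, had 27 Nanopore and 27604 Illumina counts, and MBD6, with 58 shared bases, had 14 and 6435. By Nanopore the count of MARS1 was 117% of that of DDIT3, and by Illumina it was 2649%. Whether the deposited Nanopore counts used strand is not stated, so reads of DDIT3 and of its neighbours cannot be told apart, and their part in the ratio of DDIT3 was not tested.

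The order of levels could be read with different precision on the 2 platforms. A Nanopore read comes from 1 strand of RNA, so Nanopore counts were compared between genes without division by length, and Illumina levels were compared as TPM. By Nanopore the order was HSP90B1, PDIA3, HSPA5, CALR, P4HB, ATF4, PDIA6, CANX, XBP1 and DDIT3. Of the 9 neighbouring pairs in it, 3 were apart by the exact 95% interval of their ratio: HSP90B1 over PDIA3 (1.55, 1.22 to 1.96), ATF4 over PDIA6 (1.60, 1.13 to 2.28) and PDIA6 over CANX (1.77, 1.12 to 2.85). The other 6 neighbouring pairs, each taken alone, did not differ beyond counting error. They lie between PDIA3 and ATF4 and between CANX and DDIT3, and the ends of these 2 runs were not compared.

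By Illumina TPM the order was CALR (731 TPM), HSP90B1 (628), ATF4 (399), P4HB (325), HSPA5 (288), CANX (284), PDIA6 (234), PDIA3 (232), XBP1 (37.4) and DDIT3 (9.33). All 9 neighbouring pairs were apart by counting error, but the choice of length moved genes by more than that. PDIA3 took place 8 with canonical, 7 with union and 3 with mean transcript length, whereas CALR was highest, XBP1 next to last and DDIT3 last with each of the 3. Spearman's rho between Nanopore counts and Illumina TPM was 0.612 over the 10 genes, a description across genes that share their library. PDIA3 had 1.11 times the Nanopore count of CALR (0.849 to 1.46) but 0.317 of its Illumina TPM, a ratio that was 0.146 with union and 0.421 with mean transcript length.

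Of the 10 genes, 6 were at least 2-fold lower by Nanopore (HSPA5, HSP90B1, CALR, CANX, P4HB and PDIA6), against 30.2% of the 12414 genes that averaged 5 CPM or more and were tested. DDIT3 alone was at least 2-fold higher, against 19.2% of those genes. At 4-fold, CANX was lower, against 8.14% of tested genes, and DDIT3 higher, against 12.9%. Over the 10 genes the log2 ratio had a median of −1.20, and of −1.33 over the 7 chaperones and isomerases, beside −0.42 for all tested genes. It was −0.58 for the 10498 tested protein-coding genes and −0.44 for the 1546 protein-coding genes that averaged 100 CPM or more. With the Illumina counts divided by canonical length, 2 of the 10 genes (CALR and CANX) were at least 2-fold lower, against 11.1% of tested genes, and DDIT3 was again at least 2-fold higher, against 34.8%. The median was then −0.45 for the 10 genes and 0.48 for all tested genes.

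**Figure D2:**
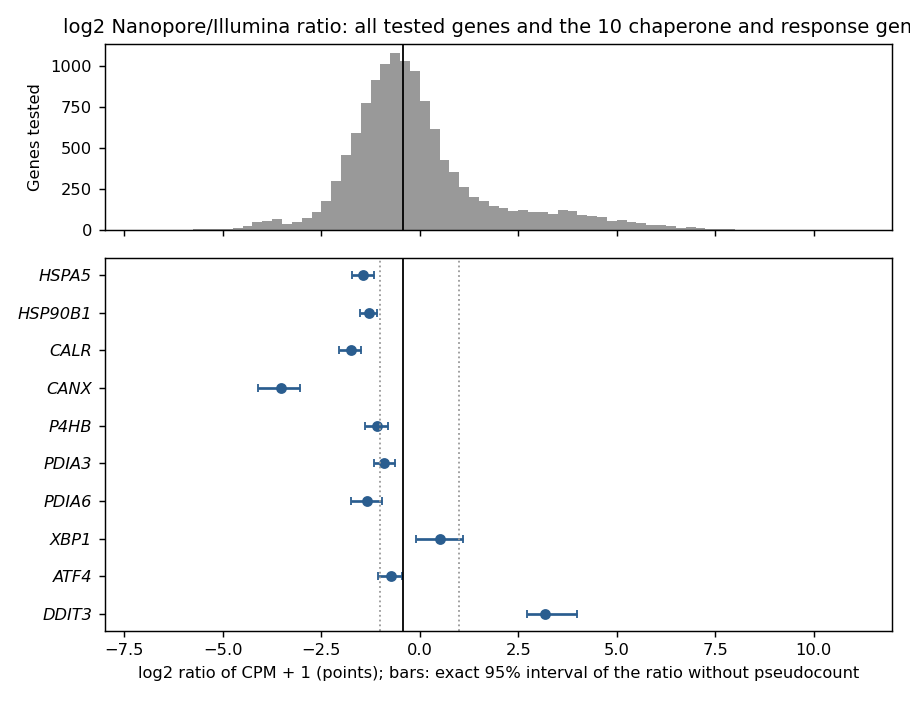
Top, the number of tested genes by log2 Nanopore/Illumina ratio of CPM + 1, in bins of 0.25, with their median of −0.42 as a black line. Bottom, the ratio of each of the 10 genes (points) with the exact 95% interval of the ratio without pseudocount (bars) and dotted lines at 2-fold, where CANX lies at −3.53 and DDIT3 at 3.17.

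By an exact conditional binomial test with Benjamini-Hochberg adjustment over all tested genes, 8 of the 10 genes were lower by Nanopore, against 27.2% of tested genes, and 1 was higher, against 20.2%. The adjusted p-values by this exact test ran from 1.5e-110 for CANX to 1.04e-06 for ATF4 among those called, with DDIT3 at 8.54e-15. The test compares these 2 libraries and not the platforms in general. At the depth of these genes, between 23 and 184 Nanopore counts, it called a ratio under 2-fold for ATF4 and PDIA3.

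Transcript length moved with the ratio, and tested genes were divided into 5 groups of about equal size by canonical length. Over all tested genes with a length, Spearman's rho between log2 ratio and canonical length was −0.478 (12350 genes), and over the 10 genes it was −0.697, both descriptions across genes. Median log2 ratios were 1.19 for the shortest genes (up to 1284 bases), a group that holds DDIT3 (903 bases), and −0.20 in the next (1285 to 2308 bases), which holds CALR, PDIA6, XBP1 and ATF4. It was −0.56 from 2309 to 3550 bases, with HSP90B1 and P4HB, and −0.81 from 3551 to 5374 bases, with HSPA5, CANX and PDIA3. Read within its own length group, CALR was low, with 5.88% of genes below it, as was PDIA6 with 11.7%. DDIT3 had 72.0% of its group below it and XBP1 73.2%, so neither stood at the edge of its length class.

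**Figure D3:**
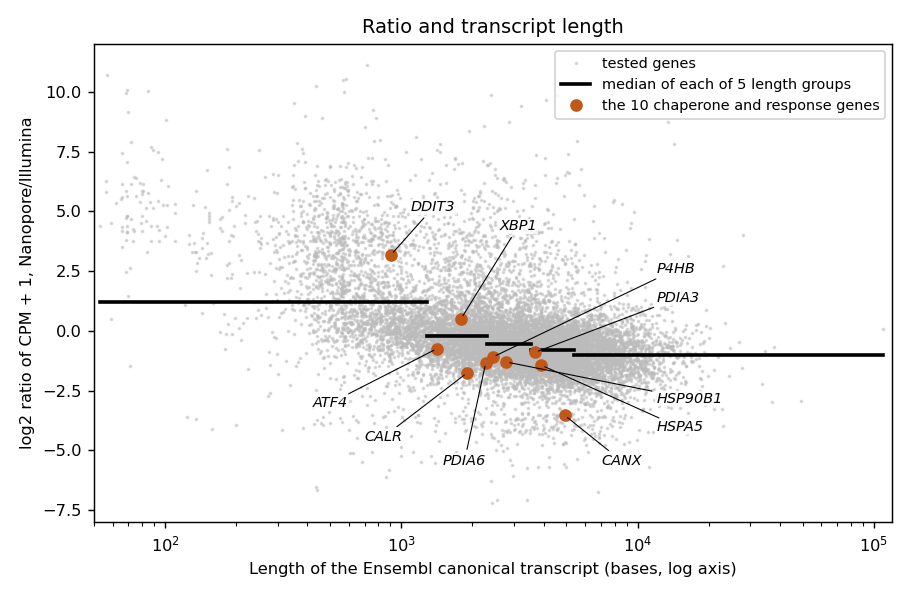
The log2 Nanopore/Illumina ratio of CPM + 1 against the length of the Ensembl canonical transcript in bases, on a log axis, for tested genes (grey) and the 10 genes (orange). Black lines give the median of each of 5 length groups, from 1.19 in the shortest to −0.996 in the longest, and CANX lies furthest below the line of its group.

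Of the 10 genes, 7 overlap another annotated gene, beside 77.2% of the 12350 tested genes with an annotation, and for several the Nanopore counts of such neighbours lay close to their own. P4HB and the lncRNA ENSG00000262831, on the opposite strand at its 3′ end (chromosome 17, 81843165 to 81843958), had 96 Nanopore counts each, but 97866 and 11469 Illumina counts. PDIA6 and ATP6V1C2, which encodes a proton pump subunit and shares 1033 exonic bases on the opposite strand, had 55 Nanopore counts each, and 66109 and 22055 Illumina counts. CALR had 107 Nanopore counts and its opposite-strand lncRNA ENSG00000267458 (chromosome 19, 12944118 to 12944487) had 92, while the lncRNA held 1.91% of the Illumina count of CALR. For 5 of the 10 genes (CALR, P4HB, PDIA3, PDIA6 and DDIT3) an opposite-strand neighbour had at least 50% of their Nanopore count, beside 36.6% of those tested genes.

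PDIA3 and HSP90B1 also had a neighbour with many Nanopore counts, though less close to their own. ENSG00000262560 is a protein-coding gene on the strand opposite to PDIA3, with which it shares 607 exonic bases, 26.1% of its own. It had 189 Nanopore counts, more than the 119 of PDIA3, and 545 Illumina counts, 0.516% of those of PDIA3. MIR3652, annotated inside an exon of HSP90B1 on the same strand (chromosome 12, 103930425 to 103930555), had 58 Nanopore counts, 31.5% of the count of HSP90B1, and 530 Illumina counts, 0.245%. By contrast UQCC6, which shares 805 exonic bases with HSP90B1 on the opposite strand, had 3 Nanopore counts, and ELL3, which overlaps PDIA3, had 2. The part of these overlaps in the ratios was not tested. Among the 3 genes without any overlap the log2 ratios were −1.44 (HSPA5), −0.74 (ATF4) and 0.51 (XBP1), beside a median of −0.66 for the 2810 tested genes without overlap. Of those 2810 genes, 37.2% were at least 2-fold lower by Nanopore and 6.94% at least 2-fold higher, against 1 and 0 of the 3.

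**Figure D4:**
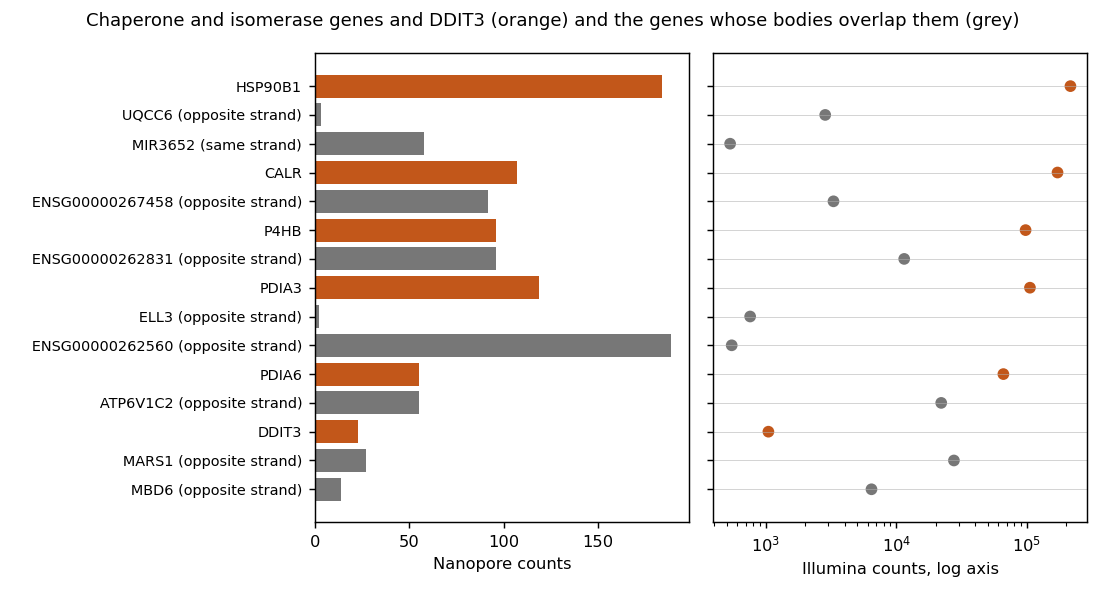
Counts of the 6 genes with a counted neighbour (orange) and of the annotated genes that overlap them (grey), by Nanopore on a linear axis from 0 (left) and by Illumina on a log axis (right). P4HB and PDIA6 each have the same Nanopore count as their opposite-strand neighbour, 96 and 55, while their Illumina counts are apart.

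Of 8 annotated pseudogenes named after the 10 genes, PDIA3P1 was the highest, with 1 Nanopore count and 5254 Illumina counts, 4.97% of the Illumina count of PDIA3, and 17.9% of the 50-base words of PDIA3 occur in it. The other 7 had no Nanopore count and between 0 and 294 Illumina counts. How the authors treated reads that fit several places is not stated, so the counts of PDIA3 and ATF4 are uncertain to the extent of this sharing.

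The wider ER machinery was described with 7 lists that hold 56 genes, of which 53 were tested. At least 2-fold lower by Nanopore were 25 of these, and 4 were at least 2-fold higher, against 30.2% and 19.2% of all tested genes. Their median log2 ratio was −0.97. The lower genes include EIF2AK3, which had no Nanopore count, and with it set at the limit that a count of 0 allows, 24 were lower and the median was −0.86. With the Illumina counts divided by length, 8 were lower and 9 were higher, against 11.1% and 34.8% of tested genes, and the median was −0.06, beside 0.48 for all tested genes.

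The lectin and glucosidase list holds enzymes that trim and re-glucosylate the glycans bound by CALR and CANX. Its median of −1.60 was the lowest of the 7 lists. Its 5 genes were all at least 2-fold lower by Nanopore, against 30.2% of tested genes, and so were the 5 tested sensors and proteases. GANAB, the catalytic subunit of glucosidase II, was the most abundant gene of the lectin list. It had 68 Nanopore and 98304 Illumina counts and a log2 ratio of −1.60. UGGT1, the glucosyltransferase that senses misfolded glycoproteins, had the lowest ratio at −2.63 with 6 Nanopore counts, and MOGS (glucosidase I) had the highest at −1.38. Divided by length, none of the 5 lectin list genes stayed 2-fold lower, against 11.1% of tested genes.

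Of the 11 other isomerases and oxidases, 6 were at least 2-fold lower, against 30.2% of tested genes, and none higher, against 19.2%. Their median was −1.18. One of the 6, ERO1B, had 1 Nanopore count and a plain ratio of 0.283 (exact 95% interval 0.00717 to 1.58), which includes equality. The exact binomial test called 5 of the 11 lower, against 27.2% of tested genes. Divided by length, 2 were lower and 2 higher, against 11.1% and 34.8% of tested genes, and the median was −0.09. PDIA4, a multidomain isomerase, was lowest at −2.00, with 25 Nanopore and 48154 Illumina counts. PRDX4, the ER peroxiredoxin, was both the highest at 0.22 and the most abundant by Nanopore, with 47 and 19168 counts. Within the Nanopore library PDIA3 had 4.76 times the count of PDIA4 (exact 95% interval 3.07 to 7.65), against 1.65 times by Illumina TPM with canonical, 2.46 with mean transcript and 0.615 with union exonic length.

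Partners of HSPA5 and small chaperones had a median of −0.06. Of these 9 genes, 2 were at least 2-fold lower, against 30.2% of tested genes, and 1 was higher, against 19.2%. HYOU1, an Hsp70-related exchange factor of HSPA5, was lowest at −2.31 with 12 Nanopore and 28984 Illumina counts. DNAJB9, a co-chaperone that acts on IRE1, was highest at 1.57, with 8 Nanopore and 1150 Illumina counts, a plain ratio of 3.31 (exact 95% interval 1.42 to 6.54). PPIB, the ER cyclophilin, was the most abundant with 114 and 107131 counts and a log2 ratio of −0.98. HSPA5 had 9 times the Nanopore count of HYOU1 (4.95 to 18.0), against 5.65 times by Illumina TPM with canonical, 5.03 with union exonic and 3.46 with mean transcript length, of which the last lies below the Nanopore interval.

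**Figure D5:**
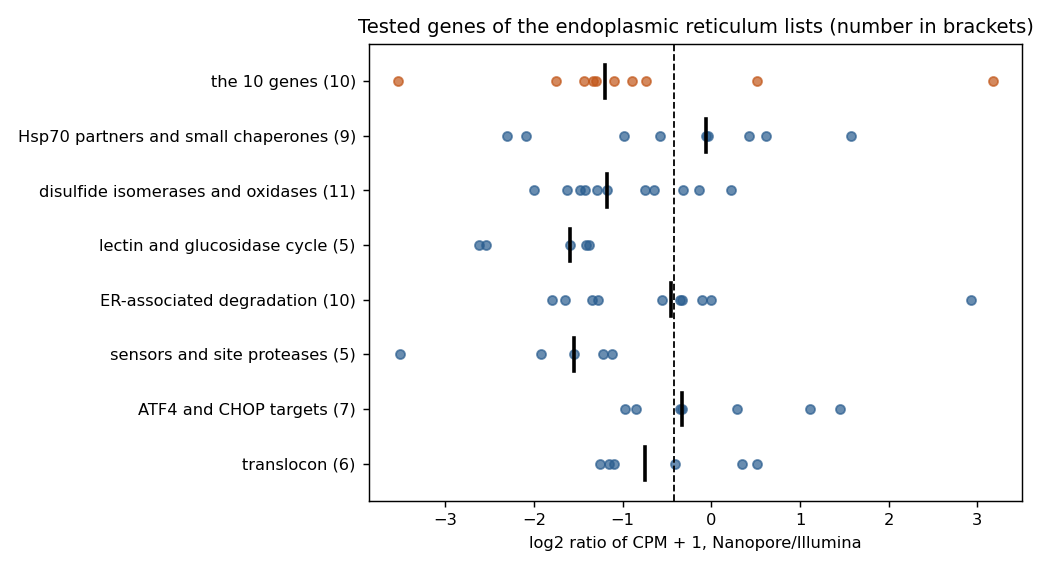
The log2 Nanopore/Illumina ratio of CPM + 1 for each tested gene of the 10 chaperone and response genes (orange) and of the 7 lists of ER machinery (blue), with the median of each list as a black bar and that of all tested genes, −0.42, as a dashed line. List medians run from −1.60 in the lectin and glucosidase cycle to −0.06 in the partners of HSPA5.

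In ER-associated degradation, misfolded proteins are returned to the cytosol. Of its 10 tested genes, 4 were at least 2-fold lower, against 30.2% of all tested genes, and 1 was higher, against 19.2%. The median was −0.46. The exception was SYVN1, the membrane ubiquitin ligase also called HRD1, with 239 Nanopore and 14747 Illumina counts and a log2 ratio of 2.93, and it was the most abundant of the list by Nanopore. Its body overlaps 3 other annotated genes, whose part in this value was not tested. EDEM2, which removes mannose from glycoproteins, was lowest at −1.79, with 2 Nanopore counts and a plain ratio of 0.252 (exact 95% interval 0.0306 to 0.912). DERL3 was not tested, with 0 Nanopore and 5 Illumina counts.

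The stress sensors and the proteases that cleave ATF6 had few Nanopore counts, between 0 and 15 each. ERN1 had 1 Nanopore and 1310 Illumina counts and was below the filter, and EIF2AK3 had 0 and 1990. A count of 0 of 403235 allows up to 7.44 CPM, taking 3 counts as the limit, and the Illumina level of EIF2AK3 was 10.4 CPM, so little can be said of its ratio. ATF6 had 9 and 12853 counts (log2 ratio −1.54), ATF6B 7 and 13127 (−1.92), MBTPS1, the site-1 protease, 15 and 16925 (−1.22) and MBTPS2, the site-2 protease, 5 and 5393 (−1.12). The median of the 5 tested genes was −1.54, or −1.22 with EIF2AK3 set at its limit of 3 counts. All 5 were at least 2-fold lower by Nanopore, or 4 with EIF2AK3 at that limit, against 30.2% of tested genes. The exact binomial test called 3 of the 5 lower, against 27.2% of tested genes. MBTPS2 and EIF2AK3 were not called, and the plain ratio of MBTPS2, 0.441 (exact interval 0.143 to 1.03), included equality. Divided by length, 2 (EIF2AK3 and ATF6B) were at least 2-fold lower and 0 higher, against 11.1% and 34.8% of tested genes. The median was then 0.24, and ATF6 (0.65), MBTPS1 (0.24) and MBTPS2 (0.31) were positive.

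Targets of ATF4 and CHOP had a median of −0.33. Of 7 tested genes, 2 were at least 2-fold higher by Nanopore, against 19.2% of all tested genes, and 0 were lower, against 30.2%. CEBPB, a transcription factor that dimerises with CHOP, was highest at 1.45 and the most abundant by Nanopore, with 92 Nanopore and 15865 Illumina counts. ATF3, a stress-induced factor, was the other at 1.11, with 3 Nanopore counts and a plain ratio of 2.56 (exact 95% interval 0.526 to 7.51), which includes equality. ASNS, asparagine synthetase, was lowest at −0.97 with 5 and 4849 counts. Its plain ratio of 0.490 (exact 95% interval 0.159 to 1.15) also included equality. CHAC1 was not tested, with 0 and 144 counts. The translocon is the channel through which proteins enter the ER. In its list 3 of 6 genes were at least 2-fold lower, against 30.2% of all tested genes, and the median was −0.75. SEC61A1, the channel subunit, was lowest at −1.26, and SEC61G, a small subunit, was highest at 0.52 and most abundant with 91 Nanopore counts. On division by length their log2 ratios became −0.06 and −1.34, so their order reversed.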

How the data were processed

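The authors deposited whole-number counts per Ensembl gene, without normalization, for 1 Nanopore and 1 Illumina library. The submitters' processing notes name minimap2 2.11-r797, HISAT2 2.1.0, featureCounts and hg38. The annotation release, the strand setting and the treatment of reads that overlap several genes or fit several places are not given in the sources used here. Symbols, positions and lengths came from GENCODE release 44 (hg38), which held 58207 of the 58735 identifiers.

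Counts were divided by the library total (CPM), and Illumina counts also by the length of the Ensembl canonical transcript (TPM). Ratios are log2 of Nanopore CPM + 1 over Illumina CPM + 1, which understates differences of rare genes. Genes averaging 5 CPM or more over the 2 libraries were tested by a two-sided exact conditional binomial test with Benjamini-Hochberg adjustment, first tested on simulated data. With 1 library per platform no model of replicate spread was possible. Intervals are 95% Wilson intervals for levels and exact (Clopper-Pearson) ones for ratios. They cover counting error only, since there is 1 library per platform. They also treat reads as independent, and amplified Illumina reads are not independent molecules. Tools were scipy 1.17.1, edgeR 4.0.16 for TMM factors, and minimap2 2.31 for alternate contigs. Of each list, the genes with the highest and the lowest ratio and the most abundant by Nanopore were named, with all sensors. Overlapping genes were named from 5 Nanopore counts or 1 Illumina CPM. The 10 genes and the lists were chosen with earlier results of these data known.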

Additional observations from a re-analysis of the deposited data

How the results depend on the processing

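Of the alternatives tried, TMM scaling, which raised all ratios by 0.088 on the log2 scale, and pseudocounts of 0.1 and 5 CPM left the counts of genes past 2-fold within 1.5 times, both for the 10 genes and for the lists. Median-ratio scaling raised ratios by 0.13 and protein-coding totals by 0.25. With the latter, 2 of the 10 genes passed the exact binomial test as higher by Nanopore, in place of 1, and the shares of the 10 genes became 0.272% by Nanopore and 0.605% by Illumina. A minimum of 4-fold left 1 of the 10 genes lower, and 1 higher and 6 lower in the lists. It follows from the stricter limit. A filter at 20 CPM left 2 list genes higher, as fewer were tested. Without overlapping genes, 0 genes were higher and 1 was lower, with a median of −0.74 over 3 genes. Division by canonical length left 2 of the 10 genes lower with a median of −0.45, turned PDIA3 to 0.34, gave 9 list genes higher and 8 lower, and lowered the Illumina share to 0.317%. On this per-length scale, union exonic length gave 2 genes higher and turned the median to 0.25, and mean transcript length gave −0.093. The cause was not tested. No paired analysis was possible because each platform has 1 library. With 23 to 184 Nanopore counts per gene, Nanopore depth and not Illumina depth sets the width of the intervals.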
